A study of Mus musculus with 2 samples.

Results

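The proteasome genes described here were the protein-coding genes of the GENCODE vM21 mouse annotation whose symbol begins with Psma, Psmb, Psmc, Psmd, Psme, Psmf or Psmg, with Psmb8 and Psmb9 left out by that rule. They numbered 48 of 21951 protein-coding genes. Chromatin accessibility was measured by scFFPE-ATAC, a split-and-pool single-cell assay in which a Tn5 transposase cuts open DNA in nuclei from formalin-fixed, paraffin-embedded (FFPE) tissue and the cut fragments are copied by in vitro transcription. The material was formalin-fixed spleen sampled as a punch core. By the study's methods the mice were of the strain C57BL/6 J and 8 weeks old, and animals of both sexes were used, but how many and of which sex each library came from is not given in the sources used here. It was profiled in 1 library whose nuclei were not purified by density gradient centrifugation (the library without gradient) and in 1 library prepared in a 50 µL reaction system (the 50 µL library). Each was represented by a single list of peaks on mm10, so neither condition had a replicate, no test between the libraries was possible, and the preparation cannot be told apart from the library. The study's methods name 100 µL as the usual volume of the transposase reaction, and the protocol in the labels gives 95 µL of buffer and 5 µL of transposase for both libraries, which differs from the title of the 50 µL library. Whether the 50 µL nuclei went through the gradient is not given in the sources used here. The comparison thus concerns preparation of the nuclei and the reaction, by the libraries' titles.

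The proteasome is the large protease that degrades ubiquitin-tagged proteins in every nucleated cell. Its 20S core is a stack of rings, with outer rings of alpha subunits and inner rings of beta subunits that hold the proteolytic sites, and the 19S cap on either end recognises, deubiquitinates, unfolds and feeds in the substrate. In spleen, lymphocytes and antigen-presenting cells also make the immunoproteasome, in which interferon-inducible beta subunits replace the standard catalytic ones and change the peptides offered on MHC class I. The genes of the standard particle are widely expressed and lie scattered over the chromosomes.

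RefSeq promoter sequences (250 bases before to 50 bases after the start site, build GRCm38.p6) were at hand for 40 of the 48 genes. Psma8, Psmb1, Psmb2, Psmb7, Psmc3, Psmd3, Psmd7 and Psmg2 had no sequence there. The following 7 promoters are shown because they carry the contrasts described below: the strongest promoter peak (Psmc4), a lid gene with an ETS match (Psmd6), a promoter with several motif kinds (Psmd12), promoters of the standard catalytic subunits with an antioxidant response element (Psmb5 and Psmb6), an interferon-inducible activator gene (Psme1), and the thymus-specific subunit gene that had no promoter peak (Psmb11). Each is written 5′ to 3′ on the strand of the gene, and capitals mark matches, on either strand, to the motifs defined further below.
Psmc4 (chr7:28050043-28050342, minus strand): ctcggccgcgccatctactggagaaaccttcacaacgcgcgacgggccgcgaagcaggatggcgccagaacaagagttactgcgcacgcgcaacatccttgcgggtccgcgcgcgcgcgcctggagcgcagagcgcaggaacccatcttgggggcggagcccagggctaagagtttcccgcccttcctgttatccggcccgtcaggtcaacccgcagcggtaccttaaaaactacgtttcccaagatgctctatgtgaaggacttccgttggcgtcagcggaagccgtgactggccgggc
Psmd6 (chr14:14120896-14121195, minus strand): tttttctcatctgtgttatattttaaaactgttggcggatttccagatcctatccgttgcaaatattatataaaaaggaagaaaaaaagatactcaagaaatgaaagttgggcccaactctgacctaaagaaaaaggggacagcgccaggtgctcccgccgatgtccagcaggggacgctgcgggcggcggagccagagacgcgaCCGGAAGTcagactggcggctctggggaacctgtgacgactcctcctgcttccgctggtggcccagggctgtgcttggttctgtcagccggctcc
Psmd12 (chr11:107479278-107479577, plus strand): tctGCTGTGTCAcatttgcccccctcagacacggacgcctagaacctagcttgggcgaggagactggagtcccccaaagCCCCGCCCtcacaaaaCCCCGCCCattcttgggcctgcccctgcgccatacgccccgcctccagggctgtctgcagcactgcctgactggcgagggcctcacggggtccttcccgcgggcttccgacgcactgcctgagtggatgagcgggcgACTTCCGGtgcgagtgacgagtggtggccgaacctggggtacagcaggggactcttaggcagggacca
Psmb5 (chr14:54617946-54618245, minus strand): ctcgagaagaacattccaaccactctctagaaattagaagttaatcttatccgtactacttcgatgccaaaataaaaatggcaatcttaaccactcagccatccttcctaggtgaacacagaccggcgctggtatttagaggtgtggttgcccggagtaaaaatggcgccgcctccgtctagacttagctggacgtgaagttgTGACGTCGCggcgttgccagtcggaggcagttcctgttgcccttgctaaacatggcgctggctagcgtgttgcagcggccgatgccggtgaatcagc
Psmb6 (chr11:70525107-70525406, plus strand): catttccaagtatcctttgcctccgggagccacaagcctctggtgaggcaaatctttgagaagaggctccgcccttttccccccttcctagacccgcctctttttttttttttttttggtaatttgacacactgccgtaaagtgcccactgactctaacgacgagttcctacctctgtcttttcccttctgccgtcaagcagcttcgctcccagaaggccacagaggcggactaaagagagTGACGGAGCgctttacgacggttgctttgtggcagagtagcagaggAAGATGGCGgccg
Psme1 (chr14:55578244-55578543, plus strand): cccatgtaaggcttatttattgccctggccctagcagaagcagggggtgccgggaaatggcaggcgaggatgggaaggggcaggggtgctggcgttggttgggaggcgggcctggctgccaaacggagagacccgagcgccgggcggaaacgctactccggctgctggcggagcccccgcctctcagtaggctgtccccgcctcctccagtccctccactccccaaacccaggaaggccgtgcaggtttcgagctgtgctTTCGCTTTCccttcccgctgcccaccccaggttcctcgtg
Psmb11 (chr14:54625060-54625359, plus strand): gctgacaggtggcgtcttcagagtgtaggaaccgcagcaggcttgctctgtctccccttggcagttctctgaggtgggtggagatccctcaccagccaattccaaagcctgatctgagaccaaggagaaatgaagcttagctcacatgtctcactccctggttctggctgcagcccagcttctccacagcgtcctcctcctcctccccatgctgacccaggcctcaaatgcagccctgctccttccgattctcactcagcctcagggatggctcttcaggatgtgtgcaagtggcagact

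Nearly all proteasome genes had an accessible promoter in both libraries. A promoter peak was a listed peak that came within 1 kb of any annotated transcription start site (TSS) of the gene. By that definition 42 of the 48 genes (87.5%) had one in the library without gradient, against 43.6% of all protein-coding genes. In the 50 µL library 43 of the 48 genes (89.6%) had one, against 56.6% of all protein-coding genes. The same 42 genes had a promoter peak in both libraries, a share of 87.5%, against 43.5% of all protein-coding genes. The lists differed in length, with 25343 peaks without gradient and 89382 peaks in the 50 µL library, and they hold neither read nor cell numbers, so their depth is unknown. When the 50 µL list was shortened to its 25343 most significant peaks, 41 proteasome genes kept a promoter peak and Psma8 and Psmg3 lost theirs, and 45.2% of all protein-coding genes had one. With peaks of a fold enrichment of at least 4 alone, 41 proteasome genes had a promoter peak without gradient, against 39.9% of all protein-coding genes, and 35 in the 50 µL library, against 38.4%. Proteasome genes have a median of 5 annotated TSSs, against 3, and so more windows. With only the 5′-most TSS of each gene, 38 of the 48 had a promoter peak without gradient and 39 in the 50 µL library. The share of all protein-coding genes was not counted for that TSS alone.

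The 6 genes without a promoter peak in the library without gradient were Psma7, Psma8, Psmb11, Psmc5, Psme2b and Psmg1, and the same genes except Psma8 lacked one in the 50 µL library. For 4 of them the absence cannot be read. The peaks of each list carry running numbers, 978 of the numbers up to 26321 were skipped without gradient and 2054 of those up to 91436 in the 50 µL library, and Psma7, Psmc5, Psme2b and Psmg1 lie in stretches where numbers were skipped in both lists. The lists hold no peaks with the skipped numbers, so the distances that follow concern listed peaks alone. For Psma7 (chr2:180036374-180042433), which encodes the core subunit α4, the summit of the nearest listed peak lay 12.4 kb from a TSS without gradient, with a fold enrichment of 4.23, and 12.8 kb from one in the 50 µL library, with 5.58. For Psmc5 (chr11:106256154-106263120), which encodes the base ATPase RPT6, it lay 39.2 kb away without gradient, with a fold enrichment of 3.65, and 38.6 kb away in the 50 µL library, with 2.29. For Psme2b (chr11:48945354-48946190) it lay 43.8 kb away without gradient, with a fold enrichment of 3.92, and 17.7 kb away in the 50 µL library, with 3.95. For Psmg1 (chr16:95979933-95990960), which encodes the core chaperone PAC1, it lay 40.0 kb away without gradient, with a fold enrichment of 4.97, and 4.63 kb away, inside the gene, in the 50 µL library, also with 4.63. Psma4 and Psmd5 without gradient, and Psmd3 in both lists, also had skipped numbers beside them but did have a promoter peak. Outside such stretches, 39 of 41 proteasome genes (95.1%) had a promoter peak without gradient, against 46.3% of all protein-coding genes outside them, and 42 of 43 (97.7%) had one in the 50 µL library, against 59.0% of all. The exceptions were Psmb11 in both libraries and Psma8 without gradient. A stretch with skipped numbers runs between neighbouring listed peaks, so a gene without a listed peak falls into one more readily. Leaving such genes out therefore raises these shares in part by itself, for the proteasome genes and for all protein-coding genes. Psmb11 encodes β5t, the catalytic subunit of the thymoproteasome, which is made in cortical epithelial cells of the thymus, and Psma8 encodes α4s, an alpha subunit of the testis.

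Promoters rich in CpG dinucleotides are often accessible in many tissues, and most proteasome genes have such a promoter. A promoter was called CpG-rich when at least 1 of its TSSs had, in the 500 bp around it, a GC content of at least 50% and a ratio of observed to expected CpG of at least 0.6. This held for 43 of the 48 proteasome genes (89.6%), against 56.5% of all protein-coding genes. The 5 others were Psmb11, Psmd10, Psme1, Psme2 and Psme2b. Within this class, 39 of 43 proteasome genes (90.7%) had a promoter peak without gradient, against 67.9% of all CpG-rich genes, and 40 of 43 (93.0%) had one in the 50 µL library, against 82.0%.

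**Figure D1:**
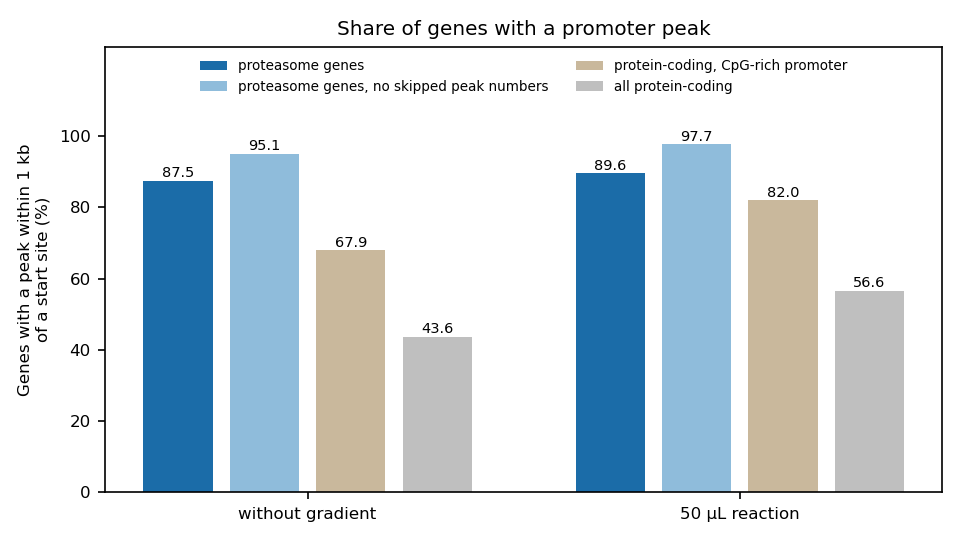
Genes with a promoter peak, in percent, in each library. Bars give the 48 proteasome genes, those outside stretches with skipped peak numbers, protein-coding genes with a CpG-rich promoter and all protein-coding genes. Genes without a listed peak fall into such stretches more readily, so leaving the stretches out raises the share. The proteasome genes stand at 87.5% without gradient and 89.6% in the 50 µL library, above the 67.9% and 82.0% of CpG-rich genes in the same libraries.

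The strength of the peaks was described by the fold enrichment, how many times the read pileup at a peak's summit exceeded its local background, in the peak caller's estimate, and by its −log10 q, the significance after adjustment over the genome. For each gene the most significant promoter peak was taken as its best peak. Both measures depend on depth, so genes were ranked within a library, as the percentile of the best peak's fold enrichment among the best peaks of all protein-coding genes with a promoter peak. The proteasome peaks lay above the middle of that ranking in both libraries. The median fold enrichment was 6.56 (range 3.54 to 10.5) over 42 proteasome genes without gradient, against 5.72 over 9580 protein-coding genes. In the 50 µL library it was 5.06 (range 3.33 to 7.02) over 43 proteasome genes, against 4.51 over 12415 protein-coding genes. The median percentile was 70.0 without gradient, where 31 of 42 genes lay above the 50th percentile, and 66.6 in the 50 µL library, where 30 of 43 did. Among CpG-rich promoters alone the median percentile of the proteasome genes was 71.6 without gradient and 64.8 in the 50 µL library.

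**Figure D2:**
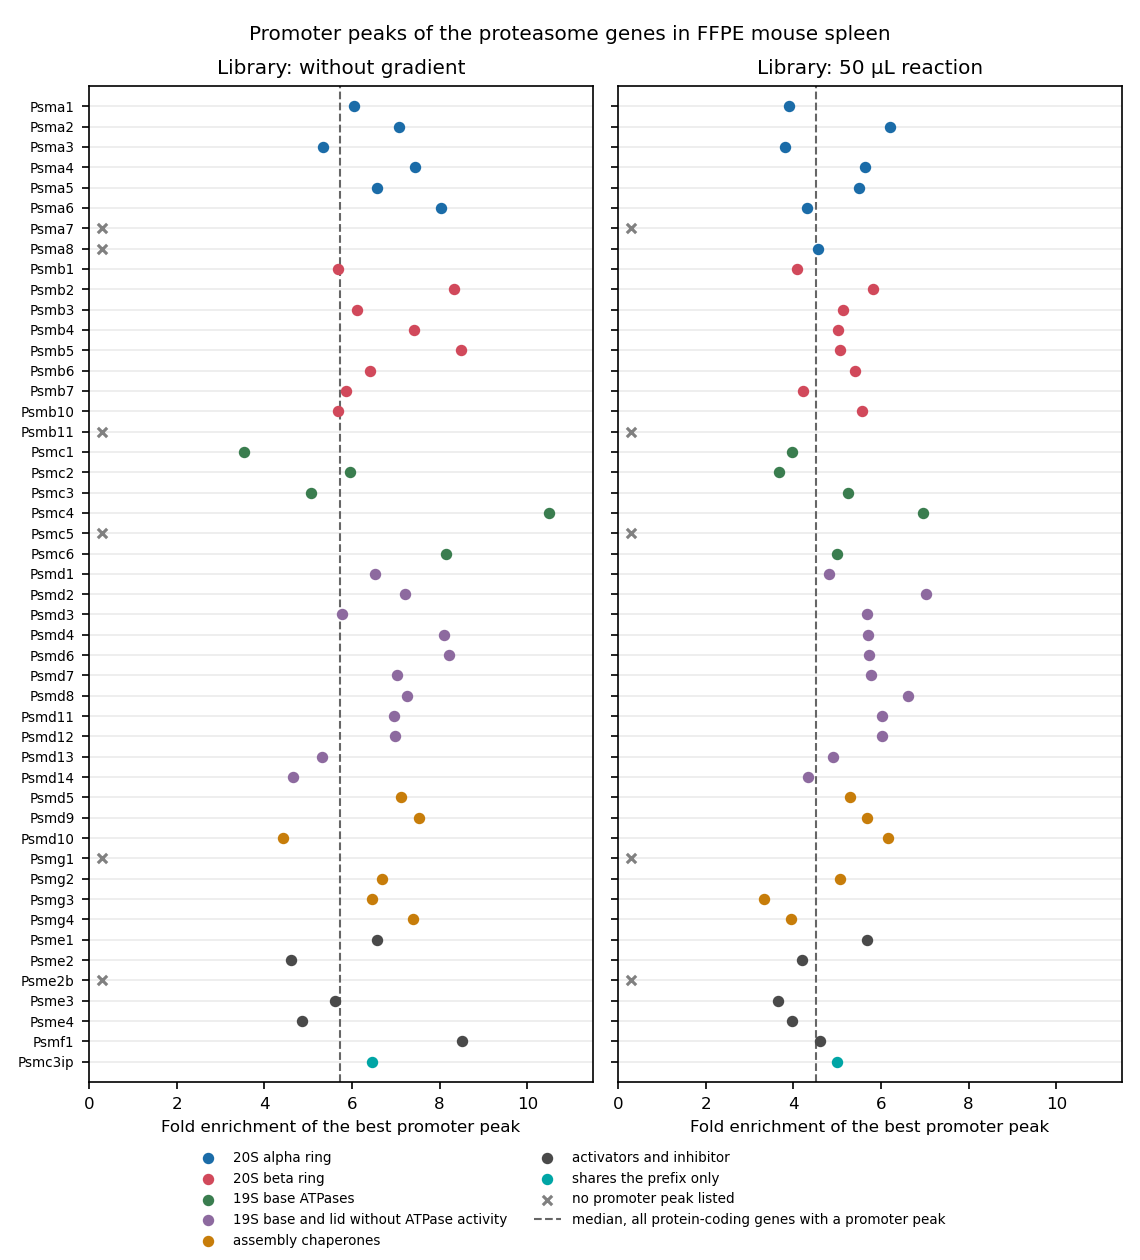
Fold enrichment (a ratio) of the best promoter peak of each proteasome gene, with the library without gradient on the left and the 50 µL library on the right. Each point is 1 gene in 1 library, colours give the role, crosses near 0 mark genes with no listed promoter peak, and the dashed line is the median of all protein-coding genes with a promoter peak (5.72 without gradient, 4.51 in the 50 µL library). All 11 lid and base genes without ATPase activity have a point in both panels, and Psmc4 lies farthest right without gradient.

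The alpha ring gates the entry to the core. Of its 8 genes, 6 had a promoter peak without gradient and 7 in the 50 µL library, with median fold enrichments of 6.81 and 4.55. Psma2 (chr13:14613240-14674236) had the strongest alpha peak of the 50 µL library. Its peak had a fold enrichment of 7.07 and a −log10 q of 25.4 without gradient (chr13:14612936-14613677), and 6.21 and 79.1 in the 50 µL library (chr13:14612796-14613943). The lowest alpha values were those of Psma3, 5.33 without gradient and 3.81 in the 50 µL library. Psma6 was high in 1 library only by rank, with a fold enrichment of 8.04 at percentile 90.8 without gradient and 4.30 at percentile 42.3 in the 50 µL library. For the testis subunit Psma8 (chr18:14706151-14762301), the 50 µL library had 1 peak of 300 bp with a fold enrichment of 4.55, and its summit lay 609 bp downstream of the nearest TSS. The nearest peak without gradient lay 7.44 kb inside the gene.

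Of the 9 beta ring genes, 8 had a promoter peak in both libraries, with median fold enrichments of 6.26 without gradient and 5.09 in the 50 µL library. The standard catalytic subunits β1, β2 and β5 are encoded by Psmb6, Psmb7 and Psmb5. Psmb5 had a fold enrichment of 8.49 without gradient and 5.06 in the 50 µL library, Psmb6 had 6.41 and 5.40, and Psmb7 had 5.86 and 4.22. All 3 thus ranked above the 50th percentile without gradient, and Psmb7 was below it in the 50 µL library, at percentile 40.0. Psmb10 (chr8:105935735-105938444) encodes β2i, the interferon-inducible replacement of β2 in the immunoproteasome, and is the 1 such subunit that the rule kept. Its best peak had a fold enrichment of 5.69 and a −log10 q of 13.1 without gradient (chr8:105936905-105937340), and 5.57 and 71.4 in the 50 µL library (chr8:105936926-105938423). The 50 µL peak was 1498 bp wide, the widest of any proteasome gene, and spanned the 2 separate promoter peaks that the library without gradient had there except for the first bases of 1 of them. The excluded immunoproteasome genes Psmb8 (β5i) and Psmb9 (β1i) had fold enrichments of 4.02 and 4.71 without gradient, at percentiles 9.05 and 23.8. In the 50 µL library they had 3.09 and 3.92, at percentiles 9.53 and 30.0. The Psmb8 peak without gradient (chr17:34196573-34196854) ended upstream of the gene (chr17:34197721-34201454). The best 50 µL peak of Psmb8 (chr17:34197665-34198506) covered the start of the gene, so the Psmb8 values of the libraries come from different sites.

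The chromosome 14 locus sets a beta gene with a promoter peak beside one without. Psmb5 (chr14:54614119-54618022, minus strand) and Psmb11 (chr14:54621433-54629556, plus strand) are neighbours whose 5′-most TSSs lie 3.41 kb apart. The Psmb5 promoter, printed above, lay inside a peak in the 50 µL library (chr14:54617791-54618786), and without gradient a peak covered all but its last bases (chr14:54617949-54618504). For Psmb11 that same Psmb5 peak was the nearest in both libraries, with its summit 3.32 kb away without gradient and 3.11 kb away in the 50 µL library, and no number was skipped there. The ratio of observed to expected CpG was 0.92 at Psmb5 and 0.30 at Psmb11.

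The 6 base ATPases form the ring that unfolds substrates, and they showed the widest spread of any role in both libraries. Psmc4 (chr7:28041707-28050101), which encodes RPT3, had the highest fold enrichment of all proteasome genes without gradient, 10.5 with a −log10 q of 35.3 (chr7:28049980-28050485). In the 50 µL library its values were 6.96 and 79.2 (chr7:28049445-28050586). It was the 1 gene above the 90th percentile in both libraries, at 99.4 without gradient and 96.1 in the 50 µL library. Psmc1, which encodes RPT2, had the lowest peak without gradient, with a fold enrichment of 3.54 and a −log10 q of 4.94 at percentile 2.99, and 3.96 and 32.3 at percentile 31.2 in the 50 µL library. Psmc3 had 5.07 and 5.25, Psmc2 had 5.96 and 3.66, and Psmc6 had 8.15 and 4.99, each without gradient and in the 50 µL library in that order.

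The other subunits of the 19S base and lid, among them the scaffolds, ubiquitin receptors and the deubiquitinase, formed the role with the highest ranks. All 11 genes had a promoter peak in both libraries, with median percentiles of 77.5 without gradient and 82.5 in the 50 µL library. Psmd2 (chr16:20651652-20663414), the base scaffold RPN1, had a fold enrichment of 7.20 and a −log10 q of 16.9 without gradient (chr16:20651343-20651914), and 7.02 and 68.0 in the 50 µL library (chr16:20651148-20652206), the highest fold enrichment of any proteasome gene there. Psmd8 (chr7:29174188-29180701), the lid subunit RPN12, had 7.25 and 19.7 without gradient (chr7:29180434-29180983), and 6.61 and 78.5 in the 50 µL library (chr7:29179996-29181101). Both ranked above the 80th percentile in each library.
Psmd4 (chr3:95032694-95042614), the ubiquitin receptor RPN10, had a fold enrichment of 8.10 and a −log10 q of 27.0 without gradient (chr3:95042507-95043264), and 5.70 and 75.5 in the 50 µL library (chr3:95042278-95043332). Its summit fell on the same base in both libraries, 112 bp upstream of the TSS. Psmd3 (chr11:98682554-98695979), the lid subunit RPN3, had 5.78 and 11.8 without gradient (chr11:98682227-98682786), and 5.67 and 70.7 in the 50 µL library (chr11:98681836-98682843). It has skipped peak numbers beside it in both lists. Psmd12 (chr11:107479484-107504362), the lid subunit RPN5, had 6.99 and 16.0 without gradient (chr11:107479306-107479625), and 6.03 and 65.8 in the 50 µL library (chr11:107479041-107479821). Psmd7 (chr8:107580381-107588464), the partner RPN8 of the deubiquitinase, had 7.03 and 17.8 without gradient (chr8:107588326-107588716), and 5.77 and 63.0 in the 50 µL library (chr8:107588121-107588799). The deubiquitinase gene itself, Psmd14, had the lowest values of the role in both libraries, 4.65 without gradient and 4.34 in the 50 µL library. The remaining genes of the role, Psmd1, Psmd6, Psmd11 and Psmd13, had fold enrichments between 5.32 and 8.21 without gradient and between 4.80 and 6.03 in the 50 µL library.

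Of the 7 assembly chaperone genes, 6 had a promoter peak in both libraries, with median fold enrichments of 6.90 without gradient and 5.18 in the 50 µL library. Psmd10 (chrX:140948429-140956728), the base chaperone gankyrin and the 1 proteasome gene on the X chromosome, differed most in rank between the libraries. It had a fold enrichment of 4.42 and a −log10 q of 6.08 at percentile 16.9 without gradient (chrX:140956429-140957000), and 6.16 and 62.6 at percentile 89.4 in the 50 µL library (chrX:140956375-140957207). Its window is shared with Atg4a, an autophagy protease gene on the other strand, whose best peak was the same peak in each library. Psmd5 and Psmd9, the other base chaperones, had 7.12 and 7.53 without gradient, and 5.29 and 5.67 in the 50 µL library. Of the core chaperone genes, Psmg2, Psmg3 and Psmg4 had 6.68, 6.45 and 7.39 without gradient, and 5.06, 3.33 and 3.94 in the 50 µL library. The 50 µL peak of Psmg3 was the weakest promoter peak of any proteasome gene in that library.

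The activators and the inhibitor cap the core in place of the 19S particle or hinder it. Of these 6 genes, 5 had a promoter peak in both libraries, with median percentiles of 47.3 without gradient and 39.5 in the 50 µL library, the lowest of the roles with several genes. Psme1 (chr14:55578123-55581529), which encodes the interferon-inducible activator subunit PA28α, had a fold enrichment of 6.56 and a −log10 q of 14.7 without gradient (chr14:55578270-55578679), and 5.68 and 65.5 in the 50 µL library (chr14:55578068-55579067). Psme2 (chr14:55587441-55591113), which encodes its partner PA28β, had 4.60 and 9.07 without gradient (chr14:55591395-55591949), and 4.20 and 42.1 in the 50 µL library (chr14:55590683-55591946). Its summits lay 686 bp and 609 bp upstream of the Psme2 TSS in these libraries, and only 55 bp and 14 bp downstream of a TSS of Rnf31, a ubiquitin ligase gene on the other strand. The peak without gradient ended short of the Psme2 gene, and the wider 50 µL peak reached into it. Psme3 (PA28γ of the nucleus) and Psme4 (PA200) had 5.62 and 4.85 without gradient, and 3.65 and 3.97 in the 50 µL library. The inhibitor gene Psmf1 had 8.50 without gradient, at percentile 94.3, and 4.61 in the 50 µL library, at percentile 53.5. Psmc3ip (chr11:101091823-101095436) shares the prefix but encodes a meiotic recombination factor. It had 6.45 and 16.4 without gradient (chr11:101095271-101095697), and 4.99 and 45.3 in the 50 µL library (chr11:101095101-101096007), within the range of the subunit genes.

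Most summits lay at the start of transcription. The median distance from the summit of the best peak to the nearest TSS was 61.0 bp over 42 proteasome genes without gradient, against 110 bp over 9580 protein-coding genes, and 79.0 bp over 43 proteasome genes in the 50 µL library, against 128 bp over 12415. Within 200 bp of a TSS lay 38 of 42 summits (90.5%) without gradient, against 71.5% of all, and 38 of 43 (88.4%) in the 50 µL library, against 67.1%. Proteasome genes have a median of 5 annotated TSSs and all protein-coding genes a median of 3 each. Measured from the 5′-most TSS alone, the median distance was 102 bp for the proteasome genes without gradient, against 158 bp for all protein-coding genes, and 90.0 bp for the proteasome genes in the 50 µL library, against 184 bp. The distant summits without gradient were those of Psmb3, Psmc1, Psmc4 and Psme2, and in the 50 µL library those of Psma5, Psma8, Psmb5, Psme2 and Psmg3. Psmb3 without gradient and Psmg3 in the 50 µL library also had a less significant peak over a TSS, with fold enrichments of 5.36 and 3.10. Without gradient 21 summits lay upstream and 20 downstream of the nearest TSS, and in the 50 µL library 29 lay upstream and 12 downstream. The window itself decided little. Its outermost included peak lay 665 bp from a TSS of Psmb3 without gradient and 918 bp from a TSS of Psmg3 in the 50 µL library, and the nearest peaks left out lay 1294 bp from a TSS of Psmd9 without gradient and 1010 bp from a TSS of Psmc3ip in the 50 µL library.

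**Figure D3:**
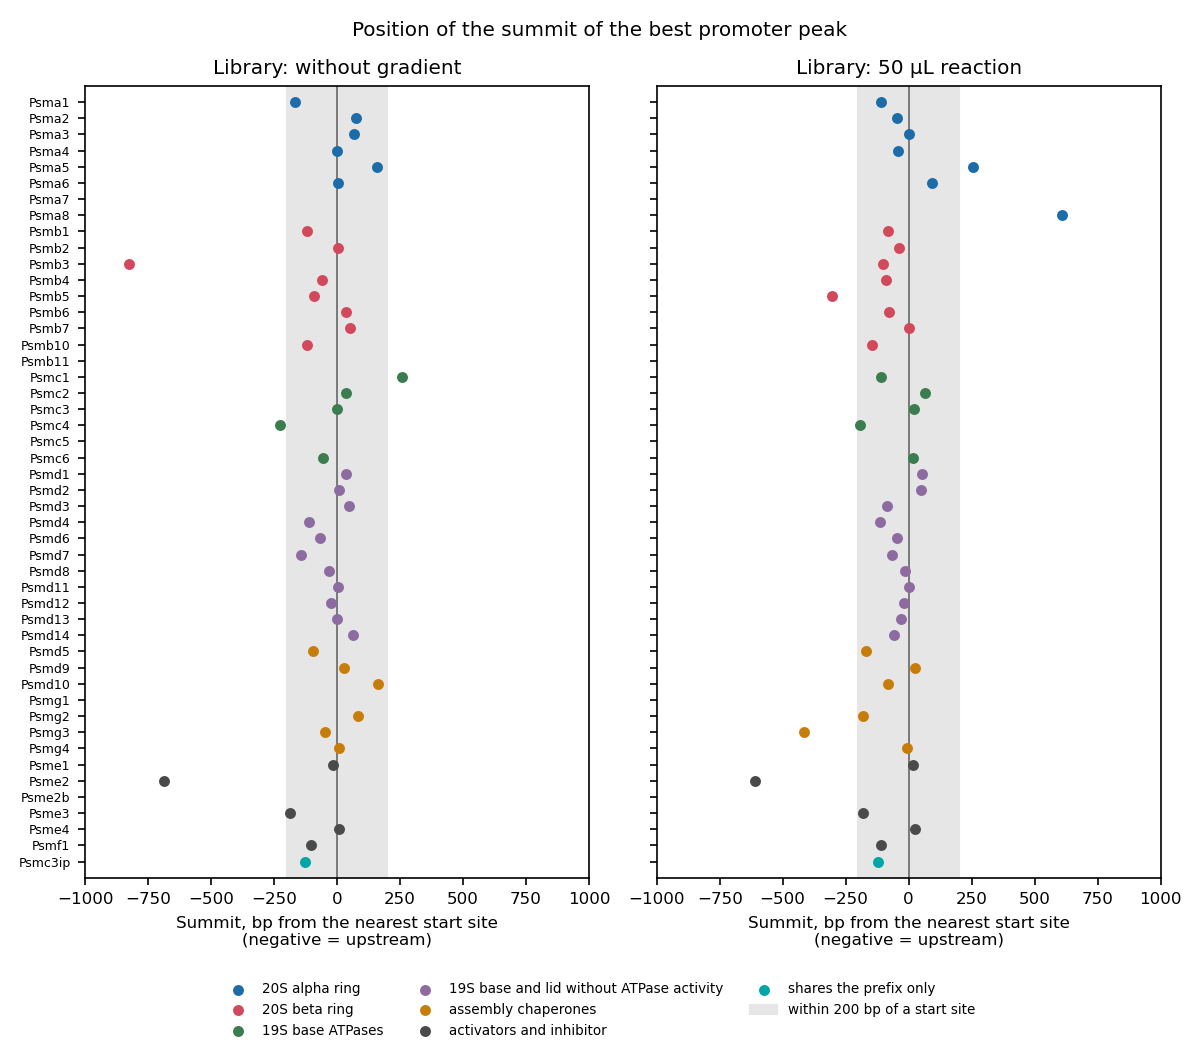
Distance in bp from the nearest TSS to the summit of the best promoter peak of each proteasome gene, negative upstream, with the library without gradient on the left and the 50 µL library on the right. Each point is 1 gene, colours give the role, rows without a point have no listed promoter peak, and the grey band spans 200 bp on either side of the TSS. The band holds 38 of 42 points on the left and 38 of 43 on the right, and Psmb3 and Psme2 lie farthest upstream on the left.

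Peak positions recurred between the libraries. All 46 promoter peaks of the proteasome genes without gradient overlapped a 50 µL peak by at least 1 bp, and 98.3% of the promoter peaks of all protein-coding genes did, with the 50 µL list the longer. When the overlap had to cover at least 50% of both peaks, 63.0% of the 46 matched. Of the 72 promoter peaks of the proteasome genes in the 50 µL library, 45 (62.5%) overlapped a peak of the library without gradient, against 48.5% of those of all protein-coding genes. The best peaks of both libraries overlapped in 40 of 42 genes, with Psmb1 and Psmg3 as the exceptions. At Psmb1 the best peak without gradient (chr17:15499695-15500060) lay over the 5′-most TSS of Psmb1 and over a TSS of Tbp on the other strand. The best 50 µL peak (chr17:15497923-15498783) lay at another TSS of Psmb1. Each library also listed a promoter peak at the site of the other library's best peak. The summits were a median of 62.0 bp apart over the 42 genes, against 70.0 bp over 9546 protein-coding genes, and 30 of the 42 pairs lay within 100 bp. For all protein-coding genes, the shares of overlapping best peaks and of summit pairs within 100 bp were not counted. The 50 µL peak was the wider 1 in 39 of 42 genes (92.9%), against 95.2% of 9546 protein-coding genes. The median width was 508 bp without gradient, against 413 bp over all protein-coding genes with a promoter peak. In the 50 µL library it was 879 bp, against 799 bp. In the 50 µL library 20 of 43 proteasome genes (46.5%) had 2 or more promoter peaks, against 48.9% of all protein-coding genes with a promoter peak, and without gradient 4 of 42 (9.52%) did, against 18.3%.

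By rank, 25 of the 42 genes lay above the 50th percentile of fold enrichment in both libraries and 7 at or below it in both. Those 7 were Psma3, Psmb1, Psmc1, Psmd14, Psme2, Psme3 and Psme4. Another 6 genes were above it without gradient only (Psma1, Psma6, Psmb7, Psmc2, Psmg3 and Psmg4), and 4 in the 50 µL library only (Psmb10, Psmc3, Psmd10 and Psmd13). Spearman's rho of the percentiles between the libraries was 0.431 over the 42 proteasome genes and 0.514 over 9546 protein-coding genes, given as a description across genes, which share the 2 libraries and their depth and are not independent replicates.

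**Figure D4:**
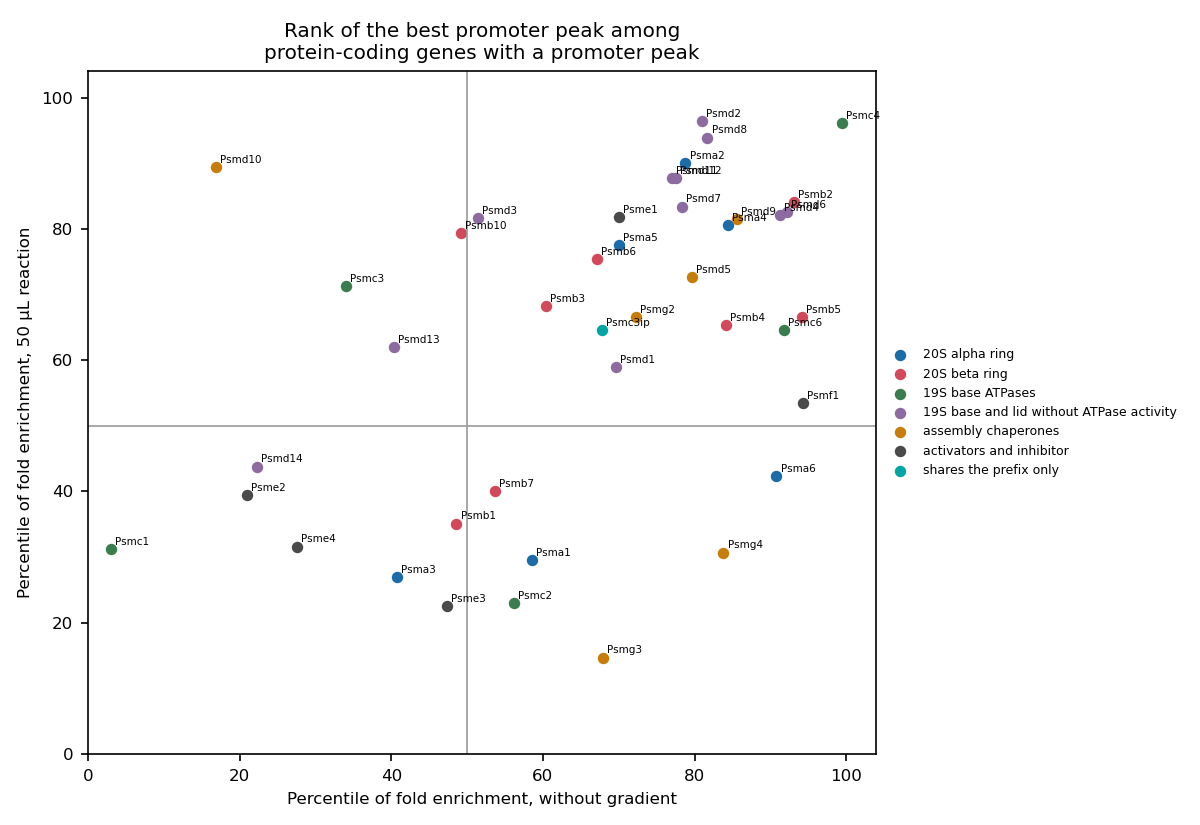
Percentile of the best promoter peak's fold enrichment without gradient (horizontal axis) against that in the 50 µL library (vertical axis), each among all protein-coding genes with a promoter peak in that library. Points are the 42 proteasome genes with a promoter peak in both libraries, coloured by role, and grey lines mark the 50th percentile. The upper right quadrant holds 25 genes, with Psmc4 at the corner, and Psmd10 lies farthest left in the upper part.

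Some proteasome genes have another gene starting close by. The window of 13 of the 48 genes (27.1%) held a TSS of another protein-coding gene, against 14.6% of all protein-coding genes, and for 12 of them (25.0%) that gene was on the other strand, against 12.3%. The pairs on opposite strands were Psma2 with Mrpl32, Psma4 with AY074887, Psma7 with Ss18l1, Psmb1 with Tbp, Psmc2 with Dnajc2, Psmc5 with Ftsj3, Psmd1 with Htr2b, Psmd5 with Cutal, Psmd10 with Atg4a, Psmd13 with Sirt3, Psme2 with Rnf31 and Psmg2 with Cep76. Psmg3 had Gm26938 on its own strand. Of these 13 genes, 11 had a promoter peak in both libraries. The best peak also covered a TSS of the other gene, and so cannot be assigned to either gene alone, for 8 of them without gradient (Psma2, Psma4, Psmb1, Psmc2, Psmd10, Psmd13, Psme2 and Psmg2) and for the same genes except Psmb1 in the 50 µL library. At Psmd1 and Psmd5 the best peak lay at another TSS of the proteasome gene. It ended 45.9 kb from the nearest TSS of Htr2b without gradient and 45.7 kb from it in the 50 µL library, and 2.81 kb and 2.69 kb from that of Cutal in these libraries. Neither Htr2b nor Cutal had a listed promoter peak in either library. Peak numbers were skipped at Cutal without gradient, so its absence there cannot be read. At Psmg3 it ended 432 bp from Gm26938 without gradient and 757 bp from it in the 50 µL library. Without these 13 genes, 31 of 35 proteasome genes had a promoter peak without gradient and 32 of 35 in the 50 µL library. The share of all protein-coding genes without a shared window was not counted.

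Proteasome genes are known to be induced together by NFE2L1 (also called NRF1 or TCF11) through antioxidant response elements, and the immunoproteasome and PA28 genes by interferon-γ. The letters searched, on both strands, were TGACNNNGC for the antioxidant response element, CCGGAAGT for ETS factors, GGGCGGGG for SP1, CCAATCA for NF-Y, CGCATGCG for the nuclear respiratory factor NRF1, AAGATGGCG for YY1, CACGTG for the E-box, TGACGTCA for the cyclic AMP response element, CTCGCGAG for the ZBTB33-like element, GAAANNGAA for the interferon-stimulated response element and GAGGAAGT for PU.1. The ETS and PU.1 letters share their end and differ at the start, so no site counts for both. In the 200 bp around the summit of the best 50 µL promoter peak, SP1 letters were found at 12 of 43 proteasome genes (27.9%), against 20.8% of 12407 protein-coding genes with a promoter peak. The interferon-stimulated element was found at 7 (16.3%), against 5.42%, the antioxidant response element at 6 (14.0%), against 9.32%, ETS letters at 4 (9.30%), against 4.46%, and NF-Y letters at 4 (9.30%), against 7.04%. The E-box, YY1 and PU.1 letters were found at 2 genes each (4.65%), against 6.54%, 1.67% and 2.39% of all, and the letters of NRF1, the cyclic AMP response element and the ZBTB33-like element at 1 gene each (2.33%), against 2.06%, 1.53% and 0.935%. Counts of 1 to 7 genes leave these shares uncertain.

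**Figure D5:**
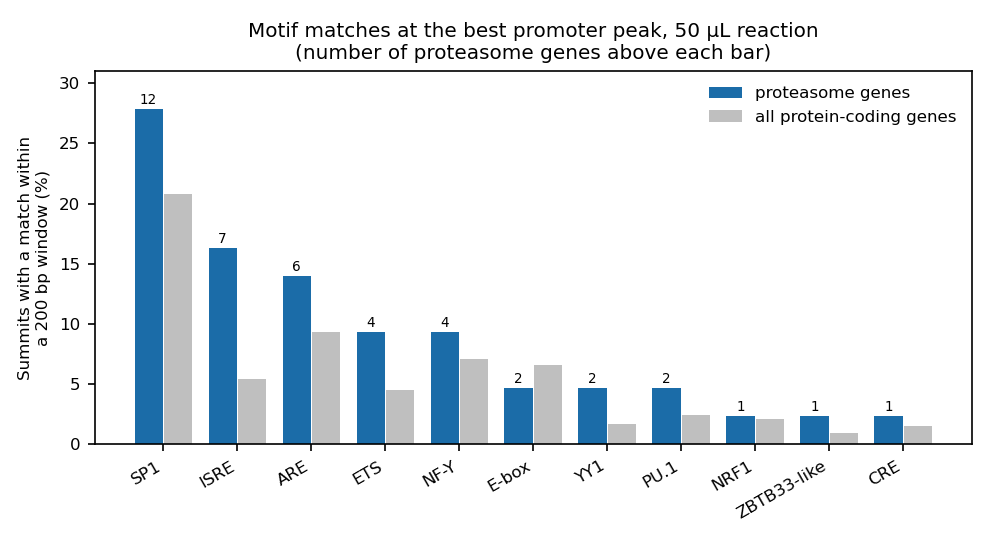
Share in percent of the best 50 µL promoter peaks that hold each motif in the 200 bp around the summit, for proteasome genes (blue, 43 genes) and for all protein-coding genes with a promoter peak (grey, 12407 genes). Numbers above the blue bars count proteasome genes. SP1 is the most frequent in both sets, at 27.9% and 20.8%, and the interferon-stimulated element follows among proteasome genes at 16.3%.

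The antioxidant response element lay at the summits of Psma3, Psmb2, Psmb6, Psmb10, Psmd7 and Psme4, and the interferon-stimulated element at those of Psmb3, Psmb4, Psmc2, Psmd4, Psmd7, Psme1 and Psmg4. In the RefSeq promoters, which are set by the start site and not by a peak, ETS letters occurred in 9 of 40 proteasome genes (22.5%), against 4.31% of 27025 genes. Those 9 were Psma6, Psmc1, Psmc2, Psmd6, Psmd12, Psmd13, Psme3, Psme4 and Psmg3. The 27025 genes are a larger set than the 21951 protein-coding genes used elsewhere. They were not limited to genes with a promoter peak or a CpG-rich promoter, so they differ in kind from the proteasome genes. SP1 letters occurred in 12 of 40 (30.0%), against 19.6%, the interferon-stimulated element in 7 of 40 (17.5%), against 9.76%, and the antioxidant response element in 6 of 40 (15.0%), against 14.0%. Positions in the promoters printed above count the base after the 250 upstream bases as 0. The antioxidant response element begins at -47 of Psmb5, at -9 of Psmb6 and, on the opposite strand, at -247 of Psmd12. The ETS letters begin at -45 of Psmd6 and, on the opposite strand, at -18 of Psmd12. The interferon-stimulated element begins at 10 of Psme1 on the opposite strand. The promoter of Psmc4, which had the strongest peak, held none of the 11 motifs, and neither did that of Psmb11.

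Peaks away from the promoters were fewer. A peak inside the gene and beyond 1 kb of every TSS was listed for 7 of 48 (14.6%) without gradient, against 20.4% of all protein-coding genes, and for 21 of 48 (43.8%) in the 50 µL library, against 44.0%. Psma2, Psmd9 and Psme4, 61.0, 80.7 and 109 kb long, had 2 such peaks each without gradient, and 4, 6 and 7 in the 50 µL library. The highest fold enrichment among each gene's most significant peak of this kind was 6.59 in Psma2 without gradient (chr13:14618849-14619152) and 6.31 in Psmd9 in the 50 µL library (chr5:123235855-123236162). The peak inside Psma8 was listed in both libraries, with a fold enrichment of 5.28 without gradient and 5.93 in the 50 µL library.

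Genes that act with the proteasome but carry other symbols were also mostly accessible. Of 9 further subunit, receptor and assembly genes that the annotation names, 8 had a promoter peak without gradient and 9 in the 50 µL library. Among all protein-coding genes the shares were 43.6% without gradient and 56.6% in the 50 µL library. The 1 without a peak in the library without gradient was Usp14, a deubiquitinase of the 19S cap. Of 13 regulators and ubiquitin shuttle genes, 11 had a promoter peak without gradient and 13 in the 50 µL library, and Ddi2, the protease that activates NFE2L1, and Ubqln1, a shuttle, were the exceptions. Nfe2l1 itself had a fold enrichment of 6.99 without gradient and 4.64 in the 50 µL library. Promoter peaks of cell type markers were much fewer without gradient. Of 5 markers each of B cells, T cells, and red pulp macrophages and myeloid cells, 1 of each list had a promoter peak without gradient. The share of all protein-coding genes there was 43.6%. All 5 of each list had one in the 50 µL library, against 56.6% of all protein-coding genes. The list without gradient was also the shorter one, and the part of its length in these counts was not tested.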

How the data were processed

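The data were 2 scFFPE-ATAC peak lists of FFPE mouse spleen, 1 per library. By the study's methods, the authors mapped reads to mm10 with BWA, removed duplicates, called peaks per library with MACS2 without a shift of the Tn5 cuts, and removed blacklisted regions, so summits may sit a few bases off the cut sites. Submitters' notes also name SAMtools and hg38. The deposited fold enrichment is a ratio of summit pileup to local background. The deposited −log10 p and −log10 q are those of MACS2, with lowest −log10 q values of 2.08 (without gradient) and 2.11 (50 µL). Peak starts, ends and summit offsets were used as deposited and are printed counted from 1. Fold enrichment and −log10 q depend on the number of reads, which is unknown here.

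Peaks were joined to GENCODE vM21 genes on GRCm38 with Python 3.11.15, numpy 2.4.6, pandas 2.3.3, scipy 1.17.1 and pyfaidx 0.9.0.4. Chromosome lengths were checked, and 169 peaks of the 50 µL list off the main chromosomes took no part. Counting was tested on simulated peaks. Every annotated TSS counted. All proteasome genes are named, with full values for the 10 with the most significant 50 µL promoter peak, 7 of special role, and those without a promoter peak, for which the nearest listed peak is given. Members and lists were chosen with earlier results of these data known. Samples were grouped by their titles, with 1 library per condition, so no p-value was computed. Alternatives covered the window, TSS, peak thresholds, ranking, overlap, motif window, shared promoters and, chosen after seeing the data, skipped peak numbers and CpG-rich promoters.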

Additional observations from a re-analysis of the deposited data

How the results depend on the processing

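No paired analysis was possible because each condition had 1 library. Of 76 alternatives, 61 left their value within 1.5 times the count, or within the order-statistic or exact interval of the reported value. The counts of proteasome genes with a promoter peak stayed between 31 and 42 without gradient and between 32 and 43 in the 50 µL library. They were lowest where genes with a shared window were left out, which left 35 proteasome genes in all. Measured from the 5′-most TSS, the median summit distance without gradient was 102 bp. Ranked among all peaks of the list, the median percentile in the 50 µL library was 88.6. With a reciprocal overlap of 50%, 63.0% of the promoter peaks without gradient matched a 50 µL peak. With a fold enrichment of at least 4, 7 genes had a peak inside the gene in the 50 µL library. The share of all protein-coding genes was not counted at that threshold. Motif counts followed the window. With 100 bp around the summit they were 2 for the antioxidant response element, 7 for SP1, 1 each for NF-Y, YY1 and PU.1, and 0 for NRF1. With 400 bp they were 13 for the antioxidant response element, 9 for ETS, 4 for YY1, 6 for the E-box and 2 for the ZBTB33-like element. Shares of all protein-coding genes were counted for 200 bp only, so the counts at 100 bp and 400 bp have no background beside them. The depth of the lists is unknown, so a gene without a peak was not shown to be closed, and skipped peak numbers leave the promoters of Psma7, Psmc5, Psme2b and Psmg1 unread.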

Other observations

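The 4 pseudogenes found by a proteasome gene symbol, Psmb5-ps, Psmb6-ps, Psmb6-ps2 and Psmb7-ps2, had 0 peaks on the gene and 0 promoter peaks in both libraries. Pseudogenes with other symbols were not examined, and the share of all pseudogenes with a peak was not counted. The parent genes of these 4, Psmb5, Psmb6 and Psmb7, all had a promoter peak in both libraries.

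Genes listed as markers of cortical thymic epithelium and of the male germ line also had promoter peaks, as 43.5% of all protein-coding genes had in both libraries. Of 3 genes known from cortical thymic epithelium, Ly75 and Prss16 had a promoter peak in both libraries and Foxn1 in neither. The Prss16 peaks lay inside the gene, near an internal annotated TSS, and not at its 5′-most TSS. Ly75 is also known from dendritic cells of the spleen. Of 4 genes known from the male germ line, Tex14 and Dazl had a promoter peak in both and Sycp3 and Stra8 in neither. The best 50 µL peak of Dazl had its summit 1151 bp downstream of the nearest TSS. Tex14 had a fold enrichment of 9.46 without gradient, at percentile 98.2, and 5.94 in the 50 µL library, at percentile 86.4. Both of these peaks ended upstream of the gene (chr11:87405065-87555823). They lay at chr11:87404480-87404848 without gradient and at chr11:87403899-87404894 in the 50 µL library. Whether they belong to another gene starting nearby was not tested.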
